A study of Mus musculus with 13 samples.

Results

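The insulin-like growth factor (IGF) axis was examined in mouse lung through 10 genes, taken by symbol from the 20270 genes of the count and TPM tables: the ligands Igf1 and Igf2, the receptors Igf1r and Igf2r, and the binding proteins Igfbp2, Igfbp3, Igfbp4, Igfbp5, Igfbp6 and Igfbp7. All 10 had enough counts to be tested, together with 15315 genes in all. In WT lungs after bleomycin, Igf1 rose 8.76-fold, Igfbp2, Igfbp4, Igfbp7 and Igf2r rose by smaller factors, and Igfbp3, Igfbp6, Igf2, Igf1r and Igfbp5 fell. Between CB1R KO and WT lungs after bleomycin, none of the 10 passed the edgeR test, whereas DESeq2 called 3, Igfbp3, Igfbp6 and Igfbp7.

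IGF1 and IGF2 are secreted peptides that signal through the tyrosine kinase receptor IGF1R, which recruits insulin receptor substrates and the PI3K and Akt cascade. IGF2R binds IGF2 without such a kinase, carries it to lysosomes for breakdown and also sorts lysosomal enzymes that carry mannose 6-phosphate. The IGF-binding proteins hold IGFs outside cells, and proteases such as PAPP-A release them by cutting the binding proteins. In the lung, IGF1 is made by macrophages and mesenchymal cells and is a known growth factor for fibroblasts.

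The libraries were made from the lower right lobe of 13 mice. The 4 control mice (replicates 3, 21, 24 and 26) carry the wildtype tag in their labels, and the methods name sterile saline as the vehicle. The 5 WT bleomycin mice (replicates 4, 2, 5, 4-B2 and 7) and the 4 CB1R KO bleomycin mice (replicates 8, 9, 10 and 11) were given 1 oropharyngeal dose of bleomycin, 1 U per kg, and their lungs represent day 14. Wildtype mice were C57BL/6J males obtained at an age of 13 weeks. CB1R KO mice lacked Cnr1, the gene of the cannabinoid receptor CB1R, in the whole body (Cnr1-/-) on that same background. The methods gave no separate age for the KO mice. No CB1R KO mice without bleomycin were analysed here, so the comparison of CB1R KO with control lungs differs in genotype and in bleomycin, and these cannot be told apart in it. Each library is taken as 1 mouse, although WT bleomycin replicates 4 and 4-B2 share the number 4. The labels of control replicate 26 and WT bleomycin replicates 4-B2 and 7 have capitals, and all others are in lower case. No CB1R KO label has capitals, and what the style stands for was not given.

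Depth was 14615904 to 16662580 estimated counts in 12 libraries and 53463884 in CB1R KO replicate 11, which was 3.33 times the median of the others. Cnr1 was counted in every library, at 1.62 to 4.10 CPM in control, 3.46 to 6.97 CPM in WT bleomycin and 2.47 to 5.63 CPM in CB1R KO bleomycin lungs. These values are sums over the whole gene and therefore do not check the deletion. Several markers of lung cells were present in every group, with surfactant and other type II cell markers summing to 19051 TPM or more in each library.

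To place 3 genes on the sequence, the 250 bases before their annotated start are shown for Igf1, which rose most, and for Igfbp3 and Igfbp6, which fell most, between control and WT bleomycin lungs. They come from RefSeq on build GRCm38.p6, which is older than the GRCm39 reference of the deposited values, and all 10 genes were matched by symbol in this table, with 14 windows. Each run is read towards the gene, 5′ to 3′, and capitals mark a match on either strand to the TATA box letters TATAAA, the CCAAT box, the AP-1 letters TGANTCA, the forkhead letters GTAAACA or the E-box letters CACGTG; these searches shared no match here.
Igf1 chr10:87860861-87861110 (+ strand): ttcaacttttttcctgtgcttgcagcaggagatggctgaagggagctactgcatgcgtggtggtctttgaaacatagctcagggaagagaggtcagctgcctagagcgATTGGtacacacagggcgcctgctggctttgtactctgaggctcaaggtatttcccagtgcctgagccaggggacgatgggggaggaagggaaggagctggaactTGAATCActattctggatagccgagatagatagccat
Igfbp3 chr11:7213924-7214173 (- strand): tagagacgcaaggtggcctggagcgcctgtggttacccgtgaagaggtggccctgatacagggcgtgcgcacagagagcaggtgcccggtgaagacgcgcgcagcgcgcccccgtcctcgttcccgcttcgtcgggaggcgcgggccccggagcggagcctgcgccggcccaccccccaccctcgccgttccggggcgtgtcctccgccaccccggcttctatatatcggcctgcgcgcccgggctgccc
Igfbp6 chr15:102143936-102144185 (+ strand): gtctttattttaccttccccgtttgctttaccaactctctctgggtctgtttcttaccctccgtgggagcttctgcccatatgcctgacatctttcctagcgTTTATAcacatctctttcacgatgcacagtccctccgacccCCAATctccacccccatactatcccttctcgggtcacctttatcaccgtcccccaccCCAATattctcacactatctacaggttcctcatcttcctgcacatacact
In the Igf1 window, CCAAT letters began 142 bases and the AP-1 letters 37 bases before the start. The Igfbp3 window held no exact match to the 5 motifs and was 73.2% G and C, against 52.8% for Igf1 and 49.6% for Igfbp6. Its run tatatat differs from the letters TATAAA and was therefore not marked. Letters of TATAAA lay 148 bases and those of CCAAT 107 and 50 bases before the start of Igfbp6. Of 32851 mouse windows of this length, 33.8% held CCAAT, 12.4% TATAAA, 6.75% TGANTCA, 6.02% CACGTG and 3.17% GTAAACA, so such letters are common, and a match is no more than a description of the sequence.

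Levels between genes were compared in TPM, which is scaled by transcript length. In control lungs the mean was highest for Igfbp7, at 777 TPM ± 86.4 (SD, n = 4), followed by Igfbp6 (359.95 TPM), Igfbp2 (285 TPM), Igfbp5 (104 TPM), Igfbp4 (85.9 TPM), Igfbp3 (61.7 TPM), Igf2r (25.2 TPM), Igf1r (14.0 TPM), Igf1 (6.81 TPM) and Igf2 (5.36 TPM). Neighbours in that order whose libraries overlapped were Igfbp6 and Igfbp2, Igfbp4 and Igfbp3, and Igf1 and Igf2. In WT bleomycin lungs Igfbp7 remained first, at 1559 TPM ± 181 (SD, n = 5), and Igfbp2 came second at 599 TPM. Igfbp4 came next at 190.2 TPM, ahead of Igfbp6 and Igfbp5, which overlapped at 85.2 and 81.6 TPM. Igf1 moved from the ninth to the sixth place, at 55.1 TPM and overlapping Igf2r at 43.8 TPM. Igfbp3, at 9.93 TPM, overlapped Igf1r at 9.65 TPM, and Igf2 was last at 3.10 TPM. CB1R KO bleomycin lungs had the same order of means, with Igfbp4 and Igfbp6 and again Igf1 and Igf2r as overlapping neighbours.

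**Figure D1:**
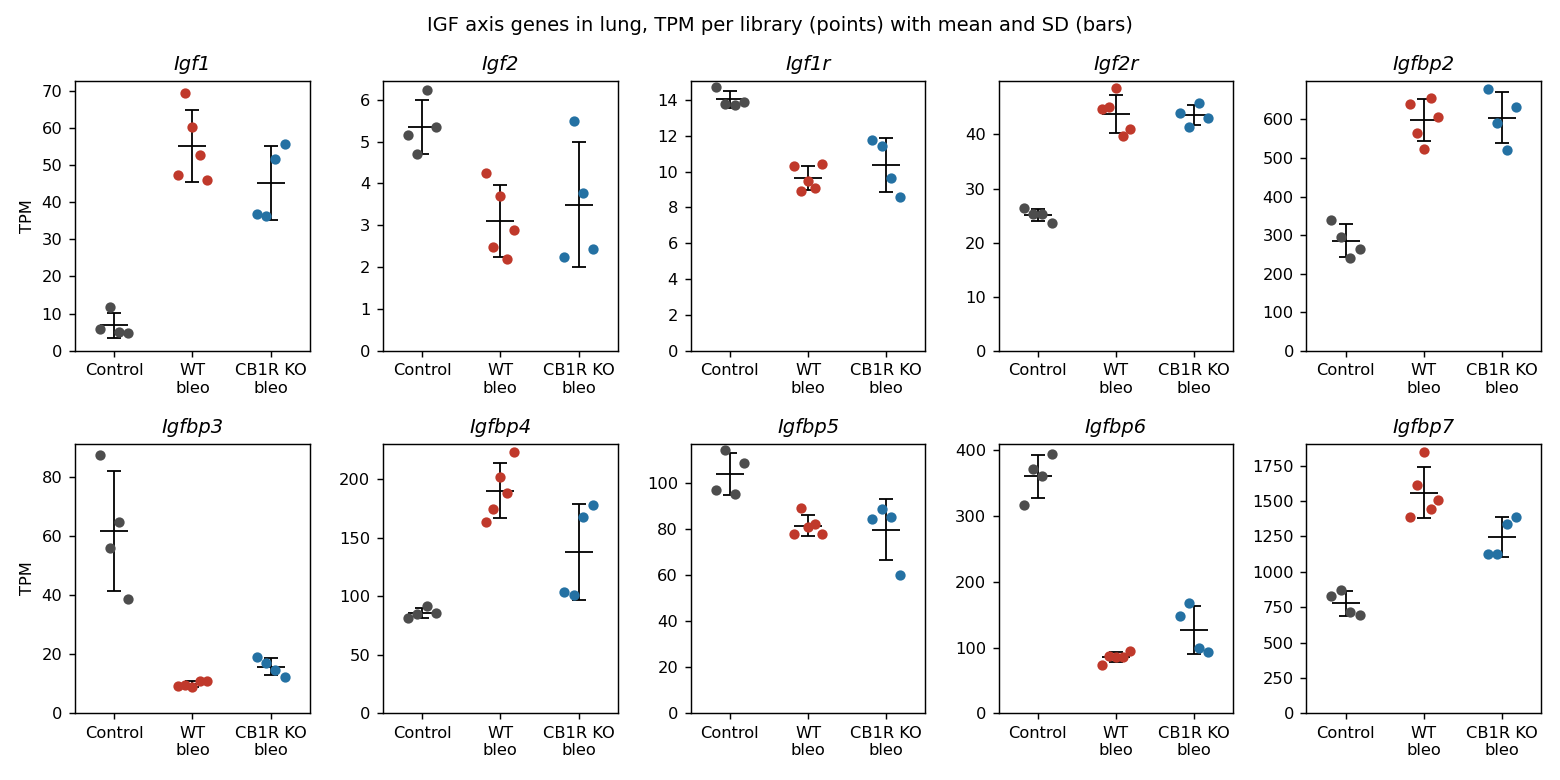
TPM of the 10 IGF axis genes (y axes, each from 0) in 4 control, 5 WT bleomycin and 4 CB1R KO bleomycin libraries (x axis); points are libraries and bars are the mean and SD. Igf1 lies between 4.73 and 11.7 TPM in control and between 45.9 and 69.3 TPM in WT bleomycin lungs, whereas Igfbp3 and Igfbp6 lie far lower after bleomycin.

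The first comparison, WT bleomycin with control, asks how the axis changed in injured lung. It was tested on rounded estimated counts with the quasi-likelihood test of edgeR, and a gene was called at a Benjamini-Hochberg adjusted p under 0.05 over all genes tested. All 10 genes were called, 5 higher and 5 lower. Among all 15315 genes 48.9% were called, 25.0% higher and 23.9% lower, so calls were common in this comparison. The groups did not overlap in CPM for any of the 10 genes, against 40.3% of all genes. The median size of the log2 fold change was 1.01 for the 10 genes and 0.29 for all genes tested. In whole lung tissue, a change in the number of cells of a type and a change in the RNA per cell cannot be told apart.

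Among the ligands, Igf1 was at 5.76, 11.7, 5.03 and 4.73 TPM in control replicates 3, 21, 24 and 26. It was at 47.3, 69.3, 60.3, 52.7 and 45.9 TPM in WT bleomycin replicates 4, 2, 5, 4-B2 and 7. The lowest bleomycin value was thus well above the highest control value, which belonged to replicate 21. On the counts, Igf1 rose by 3.13 on the log2 scale (SE 0.21, adjusted p = 9.59e-08). Summed TPM of 8 markers of monocyte-derived and interstitial macrophages was 202 to 278 in control and 1241 to 1393 in WT bleomycin lungs. Of these markers 7 were called higher, beside 25.0% of all genes, and none of the 8 was at 0 in every library. For 8 fibroblast markers the sum was 1085 to 1188 TPM in control and 2332 to 3060 TPM in WT bleomycin lungs. Of these 8 markers, 4 were called higher and 2 lower, beside 25.0% and 23.9% of all genes. The part of these cells in the level of Igf1 was not tested.

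The other ligand moved the opposite way. Igf2, a fetal growth factor that is imprinted in mice, was at 5.15, 4.70, 6.23 and 5.34 TPM in control lungs. In WT bleomycin lungs it was at 4.25, 2.47, 3.71, 2.20 and 2.89 TPM, below every control library. Its log2 fold change was -0.96 (SE 0.16, adjusted p = 0.000237). Igf2 counts were low, between 83.5 and 114.6 per WT bleomycin library. Gm49394, a gene model that overlaps Igf2 and could share its reads, had 3.57 to 16.7 counts there and 7.46 to 15.0 in control, so the split between both is uncertain. Summed TPM of 6 cardiac muscle markers was 607 to 1590 in control and 126 to 449 in WT bleomycin lungs. All 6 of them were called lower, beside 23.9% of all genes. With the mean of these markers as a covariate, an alternative chosen after seeing the data, the log2 fold change of Igf2 was -0.49 with an adjusted p of 0.155.

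The receptors also went in opposite directions. Igf1r, which carries the signal of both ligands, was at 14.8, 13.8, 13.7 and 13.9 TPM in control and at 10.3, 8.90, 9.50, 9.10 and 10.4 TPM in WT bleomycin lungs. All bleomycin libraries lay below all control libraries, and the gene fell by 0.58 on the log2 scale (SE 0.09, adjusted p = 7.16e-05). Igf2r, the clearance receptor of IGF2, was at 26.4, 25.4, 25.2 and 23.7 TPM in control and at 44.8, 45.02, 48.6, 39.7 and 40.9 TPM in WT bleomycin lungs. It rose by 0.76 (SE 0.06, adjusted p = 2.69e-07), and its standard error was the smallest of the 10 genes. Because Igf1 rose while Igf1r fell, the ratio of their TPM values went from 0.487 ± 0.243 (SD, n = 4) in control to 5.78 ± 1.38 (SD, n = 5) in WT bleomycin lungs. Those of Igf2r to Igf1r were 1.79 ± 0.0596 (SD, n = 4) and 4.56 ± 0.51 (SD, n = 5).

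Of the binding proteins, 3 rose with bleomycin. Igfbp4, a substrate of PAPP-A that mostly restrains IGF action, was at 81.7, 84.9, 91.4 and 85.6 TPM in control and at 164, 175, 202, 188 and 223 TPM in WT bleomycin lungs. The control libraries were tightly spaced and the log2 fold change was 1.19 (SE 0.17, adjusted p = 5.79e-05). Igfbp2, which has an RGD sequence and can bind integrins, was at 339.9, 296, 241 and 263 TPM in control and at 640.1, 565, 524, 657 and 608 TPM after bleomycin. It rose by 1.04 (SE 0.10, adjusted p = 2.42e-06), with no overlap. Igfbp7, a low-affinity relative deposited by endothelium and other stromal cells, was at 833, 868, 715 and 692 TPM in control and at 1389, 1613, 1847, 1441 and 1507 TPM after bleomycin. Its log2 fold change was 0.98 (SE 0.11, adjusted p = 6.36e-06), again without overlap. In the same libraries, all 8 markers of capillary endothelium were called lower, beside 23.9% of all genes. Their summed TPM was 1798 to 2264 in control and 1263 to 1443 in WT bleomycin lungs. The part of these cells in the level of Igfbp7 was not tested.

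Another 3 binding proteins fell. Igfbp3, the main carrier of IGFs in blood, was at 87.5, 56.0, 64.8 and 38.7 TPM in control and at 9.19, 9.78, 8.91, 10.9 and 10.9 TPM in WT bleomycin lungs. Control libraries spread widely, yet the lowest was above every bleomycin library, and the log2 fold change was -2.67 (SE 0.18, adjusted p = 9.80e-08), a 6.35-fold fall. Igfbp6, which prefers IGF2 to IGF1, was at 316, 371, 359.7 and 393 TPM in control and at 73.0, 87.1, 85.1, 86.0 and 95.03 TPM after bleomycin. It fell by 2.11 (SE 0.15, adjusted p = 1.56e-07), 4.32-fold. With the cardiac muscle or the adipocyte markers as a covariate, Igfbp6 was at -2.05 and -2.17 and Igfbp3 at -2.96 and -2.82, and both stayed past the threshold. Igfbp5, the most conserved of the family, was at 97.0, 114, 95.5 and 109 TPM in control and at 78.0, 89.1, 80.8, 82.1 and 78.0 TPM after bleomycin. The groups were separate but close, and the log2 fold change was -0.39 (SE 0.10, adjusted p = 0.00648). That call was lost with the cardiac muscle covariate (-0.32, adjusted p = 0.221) and in the libraries with lower-case labels (-0.35, adjusted p = 0.0617).

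**Figure D2:**
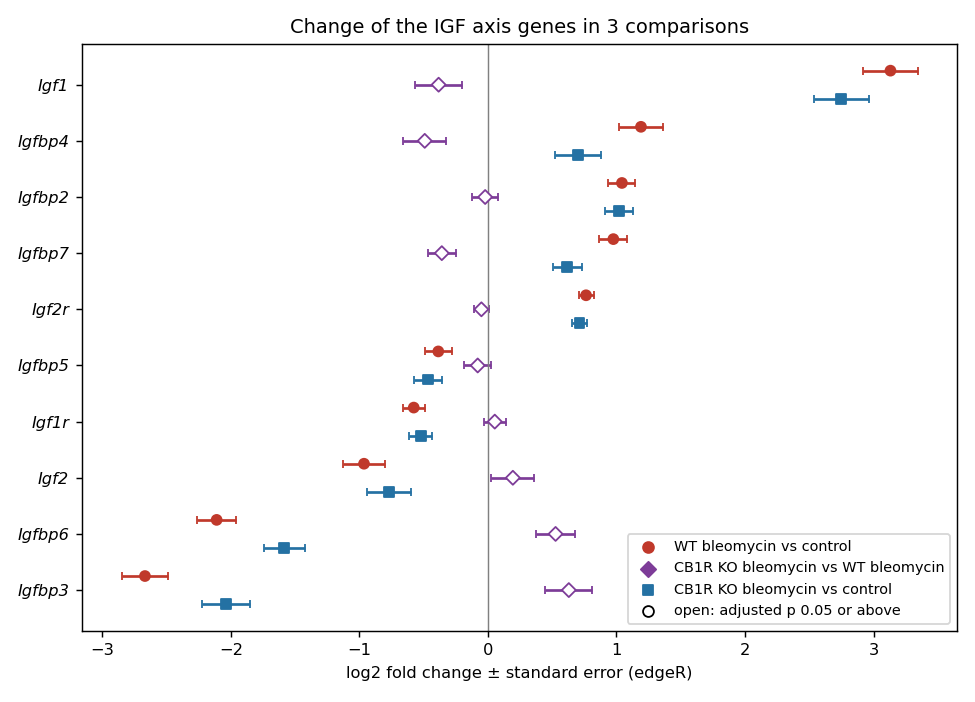
Log2 fold change of each gene (x axis, points) with its standard error (bars) from edgeR in 3 comparisons of 4 control, 5 WT bleomycin and 4 CB1R KO bleomycin libraries; filled symbols have an adjusted p under 0.05. Igf1 is farthest to the right, at 3.13 in WT bleomycin against control, Igfbp3 is farthest to the left, at -2.67, and every point of CB1R KO against WT bleomycin is open.

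The second comparison, CB1R KO with WT bleomycin, asks whether the axis differed without CB1R in injured lung. None of the 10 genes was called by edgeR, against 0.979% of all genes tested. At an unadjusted p under 0.05 there were 4, namely Igfbp3, Igfbp4, Igfbp6 and Igfbp7, and 2608 of the 15315 genes. DESeq2, which the paper used on rounded estimated counts, called 3 of the 10 genes, Igfbp3, Igfbp6 and Igfbp7. It did so on the 13 libraries, with 646 of 15315 genes called, and on these groups alone, with 649 of 15073. The median size of the log2 difference was 0.28 for the 10 genes and 0.12 for all genes.

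Of the 3 binding proteins that fell with bleomycin, Igfbp3 and Igfbp6 had positive differences and Igfbp5 a negative one near 0. Igfbp3 was at 19.2, 16.9, 14.9 and 12.5 TPM in CB1R KO replicates 8, 9, 10 and 11, above the highest WT bleomycin library, and was the only one of the 10 without overlap, which 5.60% of all genes showed. Its log2 difference, CB1R KO minus WT, was 0.63 (SE 0.18, 95% interval 0.24 to 1.02) with an adjusted p of 0.108 by edgeR, and of 0.0201 and 0.000929 by DESeq2 in its all-library and 2-group fits. Igfbp6 was at 148, 167, 98.8 and 92.6 TPM, so that replicates 8 and 9 were above all WT bleomycin libraries in CPM and replicates 10 and 11 were not. The log2 difference was 0.53 (SE 0.15, 95% interval 0.20 to 0.85), the adjusted p being 0.103 by edgeR and 0.0234 and 0.0378 by DESeq2. Without CB1R KO replicate 10 it was 0.63 and passed in edgeR, with an adjusted p of 0.0336. When each library was left out it ranged from 0.37 to 0.65. With the adipocyte or the cardiac muscle covariate in edgeR, the log2 difference of Igfbp6 was 0.58 and 0.49 (adjusted p = 0.474 and 0.432). With the same covariates that of Igfbp3 was 0.76 and 0.78 (adjusted p = 0.385 and 0.257). Igfbp5 was at 84.5, 89.0, 85.4 and 60.0 TPM. Replicate 11, the deepest library, was lowest, and the log2 difference of -0.08 (95% interval -0.30 to 0.14) became 0.04 without it.

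The 3 binding proteins that rose with bleomycin gave negative values or values near 0. Igfbp7 was at 1125, 1122, 1337 and 1390.1 TPM in CB1R KO libraries, 3 of them below every WT bleomycin library in CPM. The log2 difference was -0.36 (SE 0.11, 95% interval -0.59 to -0.13), with an adjusted p of 0.119 by edgeR and of 0.0310 and 0.0400 by DESeq2. It was -0.33 and -0.28 with the adipocyte or the cardiac muscle covariate in edgeR (adjusted p = 0.598 and 0.498). Igfbp4 was at 104 and 101 TPM in replicates 8 and 9 and at 168 and 178 TPM in replicates 10 and 11. Only replicates 8 and 9 were under the WT bleomycin range, and the log2 difference was -0.49 (SE 0.17, 95% interval -0.85 to -0.13, adjusted p = 0.157 by edgeR). Igfbp2 was at 678, 589.6, 522 and 631 TPM, within or near the WT range. Its log2 difference of -0.02 had a 95% interval of -0.24 to 0.20 and turned positive in 7 of 27 alternatives.

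For the ligands, Igf1 was at 36.9 and 36.2 TPM in CB1R KO replicates 8 and 9, below all WT bleomycin libraries, and at 51.5 and 55.7 TPM in replicates 10 and 11, inside the WT range. The log2 difference was -0.38 (SE 0.18, 95% interval -0.78 to 0.0094, adjusted p = 0.306 by edgeR). The paper counts IGF1 among the genes whose induction was attenuated by CB1R deletion, at a p-value under 0.05. Here the unadjusted p of Igf1 was 0.0550 by edgeR. DESeq2 on 13 libraries or on 2 groups did not call Igf1 (adjusted p = 0.254 and 0.206). Monocyte-derived and interstitial macrophage markers summed to 998, 799, 1380.0 and 1057 TPM in these replicates in the same order, and fibroblast markers to 2056, 1997, 2531 and 2315 TPM. Replicates 8 and 9 were thus lowest in Igf1 and in both of these sums. Alveolar macrophage markers summed to 900, 1533, 1539 and 1347 TPM, so replicate 9 was not among the lowest there. The part of these cells in the difference was not tested. Igf2 was at 2.25, 5.49, 3.78 and 2.44 TPM, and the log2 difference was 0.19 (95% interval -0.16 to 0.55). It was 0.0386 without CB1R KO replicate 9 and 0.31 without CB1R KO replicate 8, the lowest and highest values when each library was left out. Here the highest library, replicate 9, also had the highest cardiac muscle sum of its group, 786 TPM against 441 to 536 TPM in the rest.

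The receptors showed the smallest differences with Igfbp2 and Igfbp5. Igf2r was at 44.0, 41.5, 45.9 and 43.1 TPM in CB1R KO lungs, all within the WT bleomycin range in TPM, and the 95% interval of its log2 difference was -0.17 to 0.07. Igf1r was at 11.8, 11.4, 9.67 and 8.56 TPM, on both sides of the WT range, with a 95% interval of -0.13 to 0.24.

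In the third comparison, CB1R KO bleomycin with control, all 10 genes were called again, 5 higher and 5 lower, and none overlapped in CPM. Of all genes tested, 35.4% were called, 19.0% higher and 16.3% lower, and 33.5% did not overlap. Both bleomycin comparisons share the 4 control libraries, and the difference between them is the CB1R KO against WT comparison above. Igf1 had a log2 fold change of 2.75 (SE 0.21) here, against 3.13 in WT. That of Igfbp3 was -2.04 (SE 0.19) against -2.67, and that of Igfbp6 -1.58 (SE 0.16) against -2.11. For Igfbp4 the value was 0.70 (SE 0.18) against 1.19, and for Igfbp7 0.62 (SE 0.11) against 0.98. The remaining genes were close, with Igfbp2 at 1.02 and 1.04, Igf2r at 0.71 and 0.76, Igf1r at -0.52 and -0.58, Igfbp5 at -0.47 and -0.39, and Igf2 at -0.77 and -0.96. In TPM, Igf2 of CB1R KO replicate 9 lay among the control values, and limma on log2(TPM + 1) did not call the gene (-0.55, adjusted p = 0.0566). With the cardiac muscle covariate, Igfbp4 had an adjusted p of 0.0576 here.

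The make-up of the binding protein transcripts differed between the groups. The 6 binding proteins together gave 1673 TPM ± 115 (SD, n = 4) in control, 2525 TPM ± 144 (SD, n = 5) in WT bleomycin and 2209 TPM ± 119 (SD, n = 4) in CB1R KO bleomycin lungs. Igfbp6 made up 17.99 to 24.9% of this sum in control, 3.10 to 3.77% in WT bleomycin and 3.92 to 8.00% in CB1R KO bleomycin lungs. The share of Igfbp7 was 43.8 to 48.5%, 58.5 to 67.2% and 52.1 to 60.1% in the same order. Igfbp3 took 2.44 to 4.99% in control and 0.324 to 0.441% in WT bleomycin lungs. For each 100 TPM of binding proteins there were 0.401 ± 0.17 TPM of Igf1 in control (SD, n = 4), 2.18 ± 0.34 TPM in WT bleomycin (SD, n = 5) and 2.03 ± 0.354 TPM in CB1R KO bleomycin lungs (SD, n = 4). These shares describe transcripts and not the amounts of protein.

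**Figure D3:**
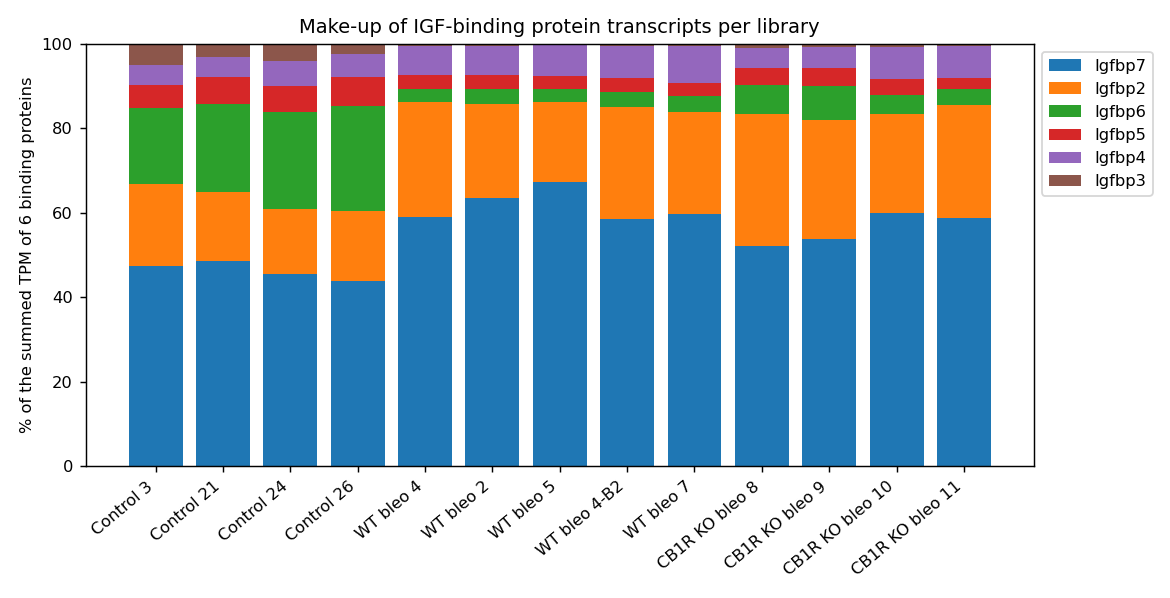
Percent of the summed TPM of the 6 binding proteins (y axis) in each of 13 libraries (x axis), with 1 colour per gene. The green Igfbp6 band covers 17.99 to 24.9% in control and 3.10 to 3.77% in WT bleomycin lungs, while the blue Igfbp7 band grows from 43.8 to 48.5% to 58.5 to 67.2%.

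Genes with the pattern most like Igf1 were sought by the root-mean-square distance between their log2 CPM, each minus its control mean, over the 13 libraries. The nearest were Msr1, a scavenger receptor of macrophages (0.247), Dkk2, a secreted modulator of Wnt signalling (0.27), C1qb, a complement chain made by macrophages (0.273), Col1a1, a chain of type I collagen (0.286), and Ms4a7, a macrophage membrane protein (0.296). The values were not scaled, so this distance depends strongly on the size of the bleomycin change. The nearest genes had log2 fold changes of 2.81 to 3.30 in WT bleomycin against control, beside 3.13 for Igf1. Within the axis itself the closest gene to Igf1 was Igfbp2 at 1.65, with a log2 fold change of 1.04. Igf2r and Igfbp7 were 0.187 apart and Igf1r and Igfbp5 0.19, the shortest distances between members. Igfbp3 and Igfbp6 had each other as nearest member, at 0.496.

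Around the axis, 55 further genes were listed and 49 had enough counts to be tested. In WT bleomycin against control 28 of the 49 were called, 11 higher and 17 lower, where 25.0% of all genes were higher and 23.9% lower, and their median log2 fold change was -0.11 against -0.01 for all genes. Binding-protein relatives, proteases and their inhibitors had 6 of 12 called higher and 1 lower. Pappa2 and Pappa, which cut IGF-binding proteins, rose by 2.58 (SE 0.22, adjusted p = 5.46e-07) and 1.64 (SE 0.41, adjusted p = 0.00411) on the log2 scale. Stc2, an inhibitor of PAPP-A, rose by 1.17 (SE 0.20) and the secreted serine protease Htra3 by 0.66 (SE 0.16), whereas Esm1, an endothelial proteoglycan, had a log2 fold change of -1.28 (SE 0.19). With the adipocyte or the cardiac muscle covariate Pappa was at 1.21 and 1.75, and its call was lost (adjusted p = 0.0839 and 0.102). With the latter Stc2 was at 0.97, and its call was lost too (adjusted p = 0.0562).

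Among further ligands, receptors and adaptors, 3 of 13 were called higher and 6 lower, again beside 25.0% and 23.9% of all genes. Irs1, a substrate of the IGF1 and insulin receptors, fell by 0.95 (SE 0.19), and Grb10, an adaptor that dampens those receptors, rose by 0.73 (SE 0.11). In PI3K, Akt and mTOR signalling 2 of 22 were called higher and 10 lower, beside the same shares of all genes. The forkhead factor Foxo4, which Akt keeps out of the nucleus, was at -0.89 (SE 0.08). Of 3 listed Igf2 mRNA-binding proteins 2 were tested, and neither was called in WT bleomycin against control. The hepatic binding protein Igfbp1 was at 0 in 11 of the 13 libraries and at 1 and 2 counts in the others, and was not tested.

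Of the 49 genes, 1 was called between CB1R KO and WT bleomycin, where 0.979% of all genes were. Htra4, a serine protease with an IGFBP-like domain, was at 4.13, 3.28, 3.40, 3.17 and 3.68 TPM in WT bleomycin and at 1.98, 1.96, 2.03 and 2.13 TPM in CB1R KO bleomycin lungs, below 2.39 to 2.96 TPM in control. The log2 difference to WT was -0.83 (SE 0.14, adjusted p = 0.0186), and the call was lost without CB1R KO replicate 8, 9 or 11 (adjusted p = 0.0742, 0.0712 and 0.0521) while the value stayed between -0.87 and -0.79 when each library was left out. The call was also lost in the libraries with lower-case labels (-0.84, adjusted p = 0.119). With the adipocyte or the cardiac muscle covariate the value was -0.89 and -0.84, and the call was lost (adjusted p = 0.190 and 0.112). Pappa was at 0.415, 0.627, 1.41 and 0.515 TPM in CB1R KO and at 1.03 to 2.83 TPM in WT bleomycin lungs, a log2 difference of -1.11 (SE 0.39, adjusted p = 0.168). Against control, CB1R KO bleomycin lungs had 7 of the 49 called higher and 11 lower, beside 19.0% and 16.3% of all genes. The 11 include Igf2bp1, an Igf2 mRNA-binding protein (-0.73, adjusted p = 0.0426).

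**Figure D4:**
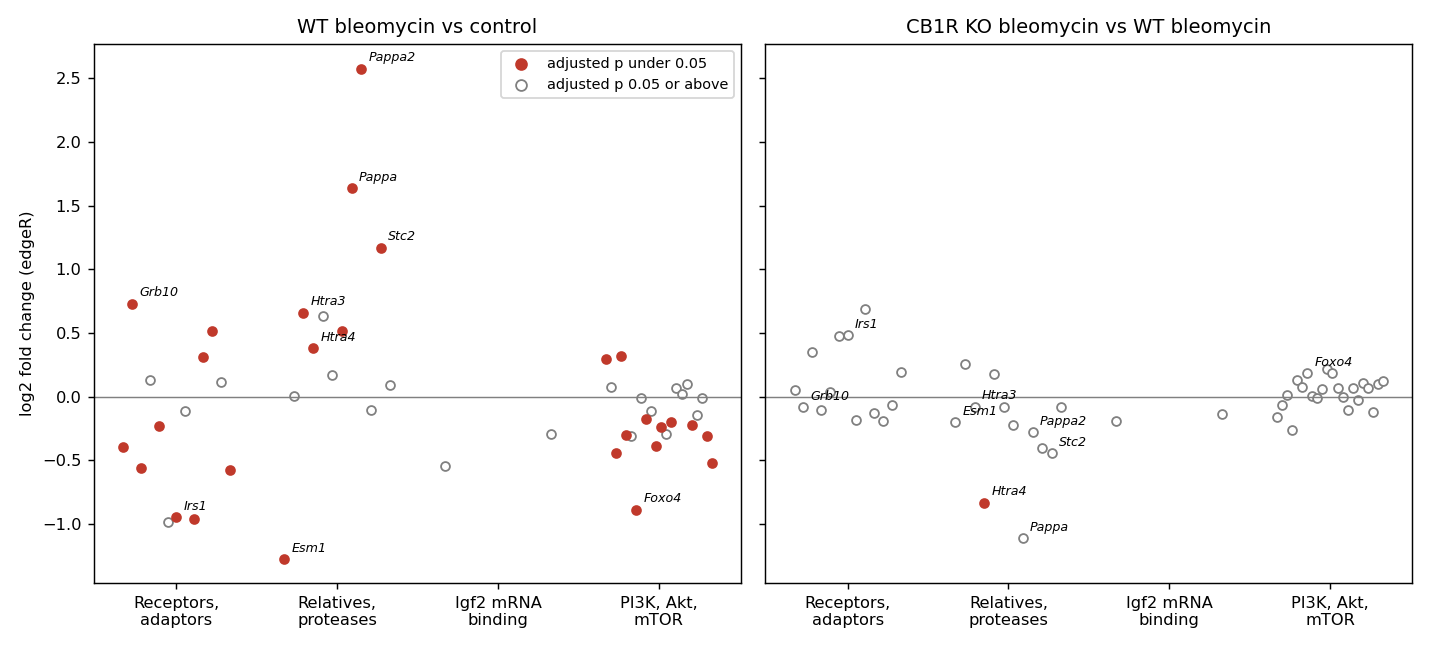
Log2 fold change (y axis) of the 49 further genes by list (x axis), for WT bleomycin against control (left, 5 and 4 libraries) and CB1R KO against WT bleomycin (right, 4 and 5 libraries); red points have an adjusted p under 0.05 in edgeR. On the left, Pappa2 is highest at 2.58 and Esm1 lowest at -1.28, and on the right Htra4, at -0.83, is the only red point.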

How the data were processed

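Lung RNA of 13 mice was enriched for poly(A) RNA, sequenced by the authors as paired reads, and quantified with Kallisto against the Ensembl mouse reference (GRCm39 in the submitters' processing notes). The deposited estimated counts and TPM values are sums, made by the authors, of all protein-coding transcripts under a gene symbol, and the counts were not normalized. Among the TPM columns, 1 matched no labelled sample and was not used.

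Counts were rounded, filtered with filterByExpr, scaled by TMM and fitted in edgeR 4.0.16 (quasi-likelihood test, R 4.3.3), with 13 libraries, 1 coefficient per group and an adjusted p threshold of 0.05. The standard error is the log2 fold change over the root of F, and intervals cover 95%. Alternatives used DESeq2 1.42.0, limma 3.58.1, other normalizations and filters, label style, marker covariates and each library left out. On simulated data, 166 of 200 genes changed 2-fold between CB1R KO and WT were recovered, with 6 false calls. Smaller changes, such as the differences of the axis genes between CB1R KO and WT, were not simulated. Python 3.11.15 read sequences and matplotlib 3.10.9 drew plots.

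The genes and lists were chosen with earlier results of these data known. Named were all 10 members, listed genes called between CB1R KO and WT, the 8 largest called and non-overlapping changes among listed genes with bleomycin, and the 5 genes nearest to Igf1. Marker lists covered alveolar macrophages, monocyte-derived and interstitial macrophages, fibroblasts, smooth muscle and pericytes, mesothelium, type I and type II cells, capillary endothelium, adipocytes and cardiac muscle.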

Additional observations from a re-analysis of the deposited data

How the results depend on the processing

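Across 27 alternatives, the count of the 10 genes called was 8 to 10 for WT bleomycin against control and 9 to 10 for CB1R KO bleomycin against control. For CB1R KO against WT bleomycin it was 0 in edgeR, 3 with DESeq2 on 13 libraries and 3 with DESeq2 on 2 groups, and 0 to 1 when each library was left out, the 1 being Igfbp6 without CB1R KO replicate 10; over all genes, 150 were called in the fit of the report, 646 and 649 by DESeq2 and 653 without that replicate. The sign turned only for small CB1R KO against WT differences. That of Igfbp2 was 0.0134 in limma on log2(TPM + 1) and 0.0134 on log2(TPM + 0.1), 0.0164 with label style as a covariate, 0.0597 in libraries with lower-case labels, 0.0474 with the cardiac muscle covariate, and -0.0667 to 0.0468 when each library was left out. Igf2 was at -0.0600 with the cardiac muscle covariate. When each library was left out, Igf1r ranged from -0.0054 to 0.14 and Igfbp5 from -0.14 to 0.0381. The causes were not tested. The marker covariates were chosen after seeing the data. No paired analysis was possible because the groups share no replicate numbers.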

Other observations

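Estimated counts and TPM of a gene can part where Kallisto assigns reads to transcripts of different length. The ratio of the estimated count to TPM, scaled per library, differed 1.70-fold between the highest and the lowest library for Igf1 and 1.61-fold for Igf2, against a median of 1.07-fold over 11964 genes. For Igf1 it was lowest in control replicate 21 (0.714) and highest in control replicate 3 (1.22), which were also its highest control libraries on the count scale, while replicate 21 alone stood out in TPM. The log2 ratio of mean TPM of Igf1 was 3.02 for WT bleomycin against control and -0.29 for CB1R KO against WT, and the fold changes on counts were 3.13 and -0.38. For the other 8 genes of the axis this ratio differed 1.01- to 1.12-fold between libraries.

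Other marker lists moved between the groups too. Summed TPM of the 7 adipocyte markers was 71.0 to 264 in control, 24.8 to 148 in WT bleomycin and 64.7 to 269 in CB1R KO bleomycin lungs. Of 7 type II cell markers, 6 were called lower in WT bleomycin than in control lungs, where 23.9% of all genes were. Between CB1R KO and WT bleomycin lungs 4 of them were called, each higher in CB1R KO, where 0.979% of all genes were called. The 8 type I cell markers summed to 4467 to 4795 TPM in control, 3556 to 4043 TPM in WT bleomycin and 3660.4 to 4976 TPM in CB1R KO bleomycin lungs. Alveolar macrophage markers summed to 949.8 to 2231 TPM, 925 to 1432 TPM and 900.4 to 1539 TPM in the same order. Of these 8 markers, 2 were called lower in WT bleomycin than in control lungs, beside 23.9% of all genes. Smooth muscle and pericyte markers summed to 535 to 645 TPM, 648 to 976 TPM and 571 to 658 TPM, and mesothelial markers to 236 to 290.5 TPM, 267 to 367 TPM and 231 to 321 TPM. In WT bleomycin against control, 3 of 7 smooth muscle and pericyte markers were called higher and 2 lower. Of 5 mesothelial markers, 1 was called higher and 1 lower, beside 25.0% and 23.9% of all genes.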
